A study of Mus musculus with 4 samples.

Results

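Matrix metalloproteinases are the zinc-dependent proteases that cut the structural proteins of the extracellular matrix. The 10 genes Mmp2, Mmp3, Mmp9, Mmp10, Mmp11, Mmp12, Mmp13, Mmp14, Mmp16 and Mmp19 were followed in cultured mouse chondrocytes, with and without tumour necrosis factor (TNF). They were chosen by name, through the RefSeq transcript accession given for each probe of the array, and were read by 12 probes. They are 10 of 37074 genes or unnamed transcripts on the array. Another 12 Mmp genes on the array were used for comparison.

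The primary chondrocytes came from 6-day-old mice in a C57BL/6J background. Both genotypes carried the floxed Rela allele (Rela fl/fl), which can be removed by Cre recombinase, and differed in the Prrx1-Cre transgene, whose promoter drives Cre in limb mesenchyme and so is not specific to chondrocytes. Rela is the transcription factor subunit p65 of NF-κB, which carries much of the signal from the TNF receptor to the nucleus. Rela fl/fl cells are the controls, and Prrx1-Cre; Rela fl/fl cells carry the label Rela CKO and are called CKO-labelled. Cells of each genotype were left without TNF or given TNF-α at 10 ng/mL for 3 days, which makes 4 groups with 1 array in each. The number of mice behind each culture is not given in the sources used here.

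Metalloproteinases are made as inactive precursors and become active when their prodomain is cut away. Cells hold them in check with inhibitors, above all the TIMP proteins. In cartilage, the collagenase MMP13 cuts the triple helix of type II collagen, and the stromelysin MMP3 cuts aggrecan and other proteoglycans and can activate other precursors. TNF and interleukin-1 are known to raise both in chondrocytes, and the same enzymes take part in the normal remodelling of the growth plate.

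With 1 array per group no value has a replicate, so no test between groups was run and the number of arrays limits the precision. The arrays shared 1 slide and 1 scan. Signals are relative to the 75th percentile over all transcript spots on the same array, which has the signal 1. Between 50.9% and 58.1% of the probes were well above background on an array, and the lowest signal well above background was between 0.0259 and 0.0527. Probes spotted 10 times, with all 10 spots well above background, gave a technical SD of 0.14 for the log2 difference of a single spot between 2 arrays. It was taken between repeat spots within each array, so it leaves out the spread between cultures, labellings and hybridisations. Spots that stood out in brightness on a single array, by 2-fold or more, partly lay close together, and such regions are called patches. They held 1.04% to 10.7% of the spots of an array. The probe of Rela itself was not dimmer on the CKO-labelled arrays, with signals of 34.0 and, given TNF, 40.2, against 28.4 and 34.9 in control cells. Whether that probe lies in the deleted region is not given in the sources used here, so these arrays are named by their label throughout. The probes of Xist were above background on the controls and on neither CKO-labelled array, where the Y chromosome gene Ddx3y was higher by 1.49 without TNF and 1.70 with TNF on the log2 scale. Ddx3y was well above background on the control arrays too, with signals of 1.31 and 1.30 there against 3.67 and 4.24. Sex makeup and the genotype label therefore cannot be told apart in any comparison of the genotypes.

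The 12 markers of chondrocytes that were looked up, which include Col2a1 and Acan, were all well above background on the 4 arrays. In both comparisons of the genotypes, 12 of 12 lay below 0 on the CKO-labelled array. The median log2 difference was -0.62 without TNF and -0.47 with TNF, where those of all genes were 0.01 and 0.06. Col2a1 (-0.03 and -0.01) and Sox9 (-0.15 and -0.13, with a spot in a patch in each comparison) were within 2 technical SD. Their summed signal was 1712 and 1621 in control cells without and with TNF, and 1321 and 1353 on the CKO-labelled arrays. Fewer cells of a type and less RNA per cell cannot be told apart in such bulk samples. All 8 fibroblast markers were well above background on the 4 arrays, and 7 of 8 lay lower on the CKO-labelled array in both comparisons of the genotypes, with medians of -0.21 without TNF and -0.33 with TNF. Among them Thy1 differed by -1.59 without TNF and by -0.28 with TNF, and Dpt, whose spot lay in a patch on 3 arrays, by -1.62 and -1.17. Of the 11 macrophage and osteoclast markers on the array, 8 were well above background on all arrays, Ptprc was so on none, and the summed signal was between 81.5 and 85.5. Itgam (31.8 to 40.4) and Ctsk (35.7 to 42.2) made up most of that sum, so it says little of the other markers. Single macrophage markers nevertheless passed the limit between the genotypes. Without TNF, Lyz2 differed by -2.11, with its spot in a patch on the control array, Laptm5 and Tyrobp were lower with bounds of -1.41 and -1.61, and Adgre1 was 2.87 higher, with its spot in a patch on the CKO-labelled array. With TNF, Laptm5 was lower with a bound of -2.88, its spot lying in a patch on the control array. Of 8 neutrophil markers, 5 were well above background on no array, among them S100a8 and S100a9, while Elane and Camp were so on all 4. The summed signal was 7.18 to 8.31, most of it from Elane. Camp differed by -1.04 between the genotypes with TNF, and Mpo, detected on the control array without TNF alone, with its spot in a patch there, by a bound of -3.26 without TNF. Of 6 endothelial markers, Cdh5, Tek and Tie1 were well above background on no array and Kdr and Pecam1 on all 4. The summed signals were 17.9 to 20.7, most of them from Kdr. Emcn, detected on the CKO-labelled array without TNF alone, in a patch, was at least 1.33 higher there on the log2 scale. Markers past the limit with TNF were Laptm5 (1.51), Lyz2 (-1.42) and Mpo (a bound of -2.75) in control cells. On the CKO-labelled arrays they were Adgre1 (-3.48) and Emcn (a bound of -2.31). Each of these spots lay in a patch on the brighter array. Of the chondrocyte markers, 11 of 12 lay below 0 with TNF in control cells and 4 of 12 on the CKO-labelled arrays, with medians of -0.22 and 0.05. The part of these cell markers in the values below was not tested.

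Of the 10 metalloproteinases, 6 were well above background on all 4 arrays: Mmp2, Mmp3, Mmp11, Mmp13, Mmp14 and Mmp19. Mmp10 was so on 3 arrays, and Mmp9, Mmp12 and Mmp16 on none. Each comparison was therefore open to 7 of the 10 members, and a gene was counted when the log2 difference reached 1 (2-fold) and the brighter array was well above background. With TNF in control cells, 3 of the 7 were higher (Mmp3, Mmp13 and Mmp19) and 0 were lower. Over all 23414 genes open to that comparison, 2.4% were higher and 4.27% were lower. On the CKO-labelled arrays, Mmp3 and Mmp10 were higher with TNF and Mmp19 was lower, where 1.02% of all genes were higher and 4.47% were lower.

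Between the genotypes without TNF, Mmp13 and Mmp19 were higher on the CKO-labelled array and Mmp3 was lower, against 3.52% and 4.4% of all genes. With TNF, 0 members were higher on the CKO-labelled array and 2, Mmp3 and Mmp19, were lower, against 1.17% and 3.22% of all genes. The median log2 difference of the 7 members was 0.45 for TNF in control cells, where that of all genes was 0.01, and -0.24 for the genotypes with TNF, where that of all genes was 0.06. In the other comparisons the medians of the members were 0.02 for TNF on the CKO-labelled arrays, where that of all genes was 0.06, and 0.03 for the genotypes without TNF, where it was 0.01. Mmp2, Mmp11 and Mmp14 did not reach the limit in any of the 4 comparisons.

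**Figure D1:**
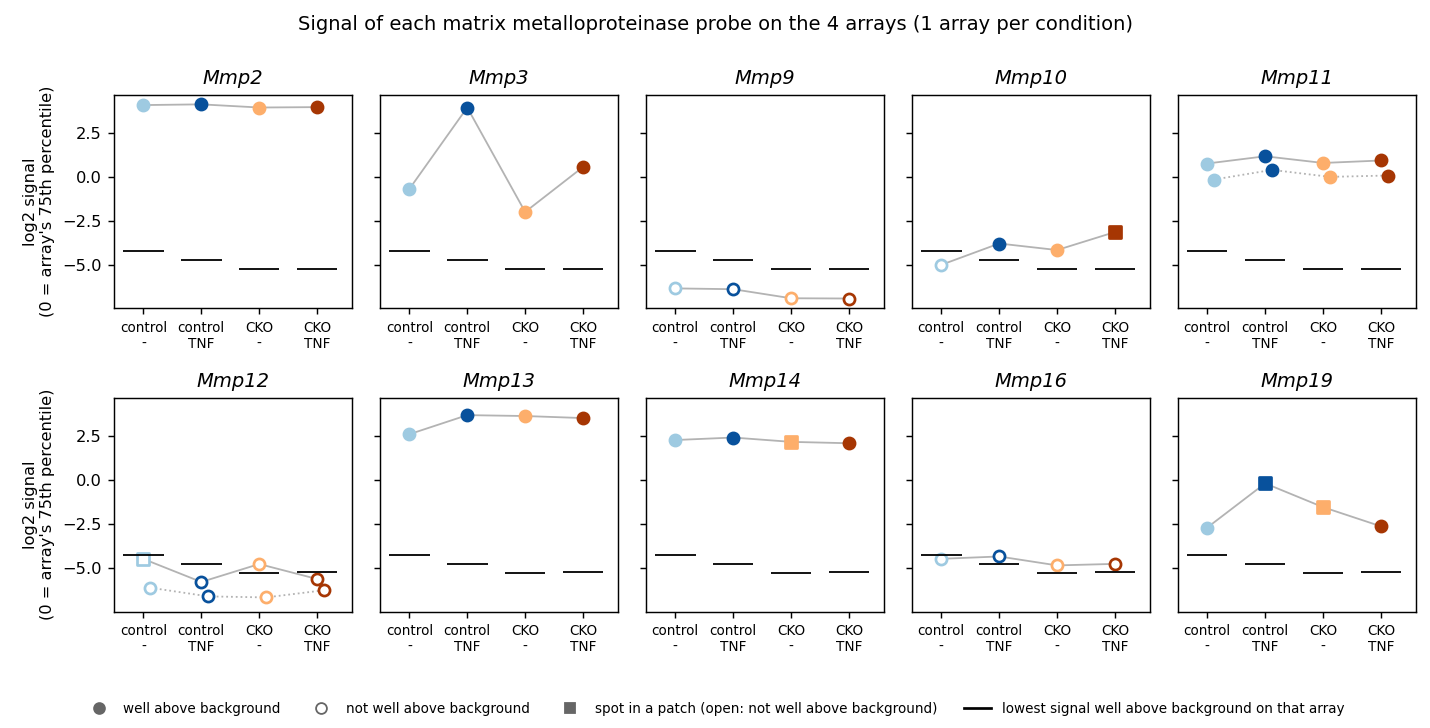
Log2 signal of each probe of the 10 metalloproteinases (vertical axis, 0 is the 75th percentile of the array) on the 4 arrays (horizontal axis), with open symbols for spots not well above background, squares for spots in a patch and a short black line at the lowest signal well above background on that array. Mmp3 rises from 0.616 to 15.3 in signal with TNF in control cells, Mmp2 stays between 15.3 and 17.3, and Mmp9 lies under the black line on every array.

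The stromelysins Mmp3 and Mmp10 lie in the metalloproteinase cluster of chromosome 9. Mmp3 (NM_010809), stromelysin-1, was read by 1 spot with a signal of 0.616 in control cells without TNF, 15.3 in control cells with TNF, 0.249 on the CKO-labelled array without TNF and 1.47 on the CKO-labelled array with TNF. Both TNF arrays were brighter than both arrays without TNF, and within each treatment the CKO-labelled array was the dimmer. The deposited intensities behind these signals were 376, 9417, 158 and 867 units in the same order, each with an error of 10.0% to 10.7% by the array software. The spot lies in no patch, and 0 of its 52 neighbouring spots were bright on a single array.

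With TNF, Mmp3 was 24.9-fold higher in control cells, a log2 difference of 4.64, and 5.90-fold higher on the CKO-labelled arrays, a log2 difference of 2.56. Without TNF, it was lower on the CKO-labelled array by a log2 difference of -1.30, or 2.47-fold. With TNF, it was lower there by -3.38, or 10.4-fold. The TNF change on the CKO-labelled arrays minus that in control cells was -2.08, against a technical SD of 0.20 for such a difference of differences. Each of the 4 levels differed from the next in order by more than 2 technical SD. Mmp3 thus passed the limit with TNF in both genotypes, with the larger rise in control cells.

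Of 20482 genes well above background on all 4 arrays, 1 had a larger TNF rise than Mmp3 in control cells. It was the chemokine gene Ccl2, named after its values were seen, and it has a spot in a patch. Of the 14917 genes without a spot in a patch, 0 rose more. On the CKO-labelled arrays, 4 genes rose more than Mmp3: Ccl2, Tslp, Ccl5 and Sema7a, also named after their values were seen. Between the genotypes with TNF, 15 genes lay lower on the CKO-labelled array than Mmp3 did, and outside patches 1 did, the chitinase-like gene Chil1 at -3.80. Background correction by the normexp model, in place of that of the array software, brought the difference without TNF to -0.96, short of the limit of 1.

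Mmp10 (NM_019471), stromelysin-2, is the closest relative of Mmp3 among the members in name and substrates. It was read by 1 spot with a signal of 0.031 in control cells without TNF, which is not well above background, 0.0719 with TNF, 0.0556 on the CKO-labelled array without TNF and 0.113 with TNF. Of the 3 arrays with a signal well above background, the CKO-labelled TNF array was the brightest, and its spot lay in a patch there. With TNF it was higher by a log2 difference of at least 0.45 in control cells and by 1.02, or 2.03-fold, on the CKO-labelled arrays. Between the genotypes with TNF the difference was 0.65, short of the limit and 0.28 with normexp correction. Without TNF the genotype difference was at least 0.08, a lower bound that leaves its size open, and 0.84 when the background limit was not applied.

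In that patch, 3 of its 52 neighbouring spots were bright on the CKO-labelled TNF array alone. Its intensities of 19 to 67 units carried errors of up to 45.1%. The rise of 1.02 fell short of the limit without scaling, with the authors' scaled values and with normexp correction, and had no value with patches left out.

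The regions before the starts of these 2 genes and of Mmp13 are shown because the 3 genes were those of the chromosome 9 cluster with a signal well above background on at least 3 arrays, and all hold the letters of an AP-1 site, the motif bound by Fos and Jun proteins. The set of GRCm38.p6 promoters used here held 6 of the 10 members (Mmp3, Mmp10, Mmp11, Mmp12, Mmp13 and Mmp14, with 2 starts for Mmp12). The other members were missing from that set, which does not mean that RefSeq lacks them. The arrays were designed on another assembly. Each line gives the 250 bases before the annotated start, 5′ to 3′ on the plus strand, at chr9:7445572-7445821 for Mmp3, chr9:7502092-7502341 for Mmp10, chr9:7272264-7272513 for Mmp13 and chr14:54431348-54431597 for Mmp14, which is shown as a member that did not reach the limit in any comparison. Capitals mark the AP-1 letters TGAGTCA, on either strand, and the TATA box letters TATAAA.
Mmp3: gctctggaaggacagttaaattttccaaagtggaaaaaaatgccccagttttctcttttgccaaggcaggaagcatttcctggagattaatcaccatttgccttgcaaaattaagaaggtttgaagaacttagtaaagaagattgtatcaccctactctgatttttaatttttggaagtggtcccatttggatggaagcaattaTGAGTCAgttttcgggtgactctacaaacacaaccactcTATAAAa
Mmp10: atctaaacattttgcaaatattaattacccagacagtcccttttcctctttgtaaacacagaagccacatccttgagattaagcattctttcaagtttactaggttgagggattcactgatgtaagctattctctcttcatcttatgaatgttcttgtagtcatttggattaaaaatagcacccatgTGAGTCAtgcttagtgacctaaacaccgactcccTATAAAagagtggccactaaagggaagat
Mmp13: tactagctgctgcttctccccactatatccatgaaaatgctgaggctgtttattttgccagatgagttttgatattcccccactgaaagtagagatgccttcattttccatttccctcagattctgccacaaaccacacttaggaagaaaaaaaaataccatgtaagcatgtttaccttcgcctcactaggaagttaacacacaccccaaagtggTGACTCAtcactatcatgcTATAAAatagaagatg
Mmp14: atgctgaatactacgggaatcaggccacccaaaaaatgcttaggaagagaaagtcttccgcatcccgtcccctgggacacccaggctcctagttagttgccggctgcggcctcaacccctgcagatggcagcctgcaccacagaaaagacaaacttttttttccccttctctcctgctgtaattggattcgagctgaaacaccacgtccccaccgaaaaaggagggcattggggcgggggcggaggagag

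In Mmp3 the AP-1 letters end 40 bases before the annotated start, in Mmp10 they end 57 bases before it, and in Mmp13 they lie on the minus strand and end 29 bases before it. The same letters stand before the downstream start of Mmp12, 38 bases away. Thus 4 of the 7 member promoters hold TGAGTCA on either strand, and 4.46% of 32851 promoters of the same length do. TATAAA was found in Mmp3, Mmp10 and Mmp13, in 3 of 7 member promoters against 12.4% of all. The share of G and C was 37.6%, 37.2% and 40.4% in Mmp3, Mmp10 and Mmp13, and 63.2% in Mmp11 and 55.2% in Mmp14.

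The letters of an NF-κB site, searched on both strands, matched in 1 member promoter, that of the upstream start of Mmp12, and in 7.25% of all. The Runx letters AACCACA matched in Mmp13 (4.40% of all promoters) and the PEA3 letters AGGAAG in Mmp3, Mmp12, Mmp13 and Mmp14 (29.5% of all). None of the motifs overlapped another in these promoters, and Mmp11 had no match. These matches describe letters in a window of 250 bases and not bound sites, and say nothing of sites farther away.

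**Figure D2:**
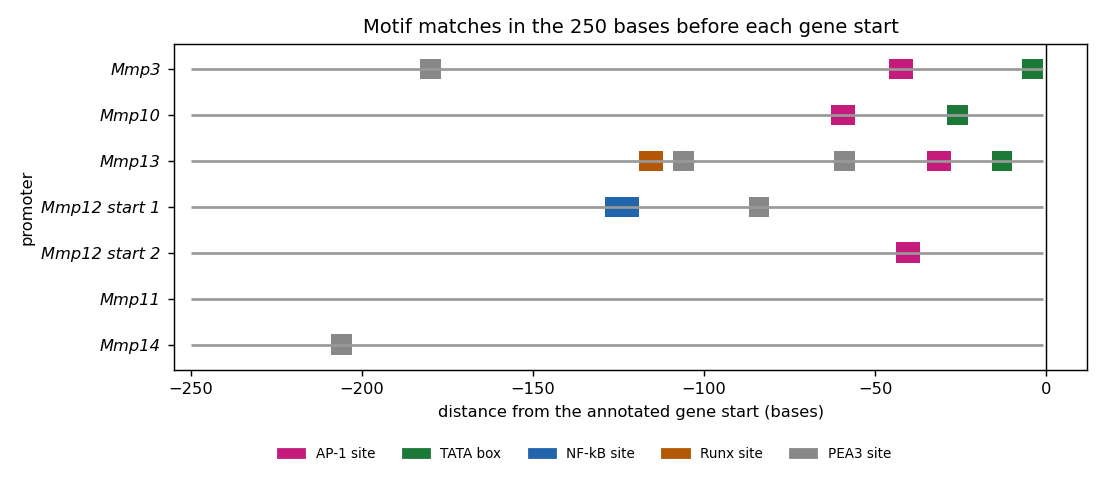
Positions of the motif matches in the 250 bases before each annotated start (horizontal axis, distance from the start in bases) for the 7 promoters of 6 members (vertical axis), with 1 colour for each motif. The AP-1 letters lie 29 to 63 bases before the start in Mmp3, Mmp10, Mmp13 and the downstream start of Mmp12, and the NF-κB letters match only before the upstream start of Mmp12.

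Mmp11 (NM_008606), stromelysin-3, differs from the other stromelysins in being activated inside the cell by furin. Its brighter probe had a signal of 1.68 in control cells without TNF, 2.24 with TNF, 1.72 on the CKO-labelled array without TNF and 1.90 with TNF. Its other probe read 0.896, 1.31, 0.995 and 1.05 in the same order. Both probes were highest in control cells with TNF and lowest in control cells without it. The TNF difference was 0.41 and 0.55 in control cells by the 2 probes, beyond 2 technical SD, and 0.14 and 0.08 on the CKO-labelled arrays, within them. With TNF the CKO-labelled array was lower by -0.24 and -0.32, and without TNF the difference was 0.03 and 0.15.

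Mmp13 (NM_008607), collagenase-3, is the main enzyme for cutting type II collagen and a gene of hypertrophic chondrocytes. Its 1 spot had a signal of 6.08 in control cells without TNF, 12.9 with TNF, 12.5 on the CKO-labelled array without TNF and 11.5 with TNF. A single array, that of control cells without TNF, stood below the other three, which lay within 2 technical SD of each other. With TNF the signal was 2.12-fold higher in control cells, a log2 difference of 1.09, and the difference on the CKO-labelled arrays was -0.12. Without TNF the CKO-labelled array was 2.05-fold higher, a log2 difference of 1.04, and with TNF the difference was -0.17.

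The TNF change of Mmp13 on the CKO-labelled arrays minus that in control cells was -1.20. Both the TNF rise and the genotype difference of Mmp13 rest on the control array without TNF, so they are not separate measurements. Its spot lies in no patch and 0 of its 53 neighbours were bright on a single array. Outside patches, 40 genes rose more with TNF in control cells, among 14917. With normexp correction the genotype difference without TNF was 0.998, just under the limit. Col10a1, the collagen of hypertrophic cartilage, was higher on the CKO-labelled arrays by 0.83 without TNF and 0.96 with TNF, whereas Mmp13 was higher there only without TNF. In control cells Col10a1 changed with TNF by -0.18.

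**Figure D3:**
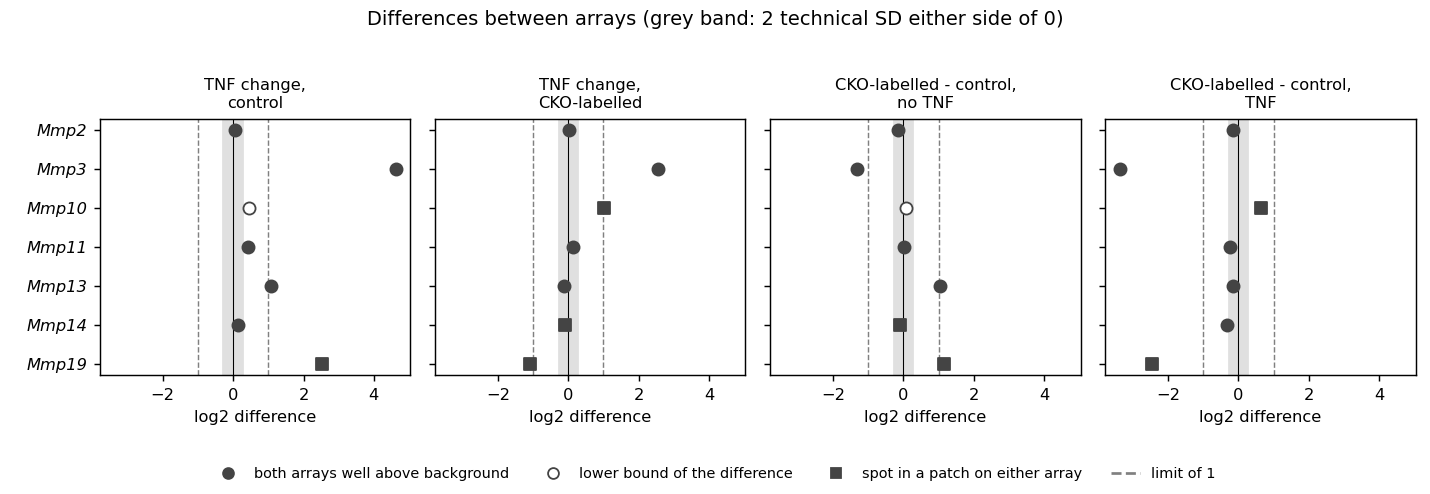
Log2 differences (horizontal axes) of the 7 members open to the comparisons (vertical axis), 1 panel for each of the 4 comparisons, with dashed lines at the limit of 1, a grey band of 2 technical SD, squares for spots in a patch and open circles for lower bounds. Mmp3 stands at 4.64 and 2.56 with TNF and at -1.30 and -3.38 between the genotypes, while Mmp2 and Mmp14 lie inside or next to the grey band in every panel.

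The gelatinases degrade denatured collagen and type IV collagen. Mmp2 (NM_008610), gelatinase A, had a signal of 16.9 and 17.3 in control cells without and with TNF, and 15.3 and 15.6 on the CKO-labelled arrays. The TNF differences were 0.04 and 0.02, and the genotype differences -0.14 without TNF and -0.16 with TNF, each within 2 technical SD. Mmp9 (NM_013599), gelatinase B, is a gene of osteoclasts and neutrophils. It was spotted 10 times on each array, and 0 of the 10 spots were well above background on any array, with signals from 0.00823 to 0.0123. At this sensitivity no difference in Mmp9 was detectable.

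Mmp12 (NM_008605), the macrophage elastase, was read by 2 probes, neither well above background on any array. The signals of the brighter were 0.0446 and 0.018 in control cells without and with TNF, and 0.0365 and 0.0202 on the CKO-labelled arrays, and its spot lies in a patch on the first of these arrays. The other probe was dimmer on every array, with a signal of at most 0.0143. No difference is given for either, since a level under the background limit has no order.

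The membrane-type metalloproteinases sit on the cell surface, where Mmp14 (MT1-MMP) activates the precursor of MMP2. Mmp14 (NM_008608) had a signal of 4.84 and 5.34 in control cells without and with TNF, and 4.50 and 4.26 on the CKO-labelled arrays. TNF differences were 0.14 and -0.08 and the genotype difference without TNF was -0.10, all within 2 technical SD. With TNF the CKO-labelled array was lower by -0.32, which is beyond 2 technical SD and short of the limit. On the CKO-labelled array without TNF, 6 of the 54 neighbours of its spot were bright on that array alone. Mmp16 (NM_019724), MT3-MMP, was well above background on no array, with signals from 0.0346 to 0.0491.

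Mmp19 (NM_021412) cuts several basement membrane and matrix proteins. It was read by 1 spot with a signal of 0.153 in control cells without TNF, 0.877 with TNF, 0.344 on the CKO-labelled array without TNF and 0.161 with TNF. The array of control cells with TNF and the CKO-labelled array without TNF were the bright ones, and the other two were level with each other. With TNF it was 5.72-fold higher in control cells (log2 2.52) and 2.13-fold lower on the CKO-labelled arrays (log2 -1.09). Between the genotypes it was higher on the CKO-labelled array by 1.16 without TNF and lower by -2.44 with TNF. The fall on the CKO-labelled arrays was short of the limit with quantile normalization (-0.91) and with normexp correction (-0.65), and so was the genotype difference without TNF with normexp correction (0.70).

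The spot of Mmp19 lies in a patch on exactly the bright arrays. Of its 52 neighbouring spots, 10 were bright on the control array with TNF alone and 12 on the CKO-labelled array without TNF alone, and 0 on each of the others. The median log2 deviation of those neighbours from their mean over the other arrays was 0.30 and 0.18 on the bright arrays, and -0.71 and -0.78 on the control array without TNF and the CKO-labelled array with TNF. With spots in patches left out, Mmp19 has no value on the bright arrays and none of its 4 differences can be given. The part of the position on the array in the signal of Mmp19 was not tested.

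**Figure D4:**
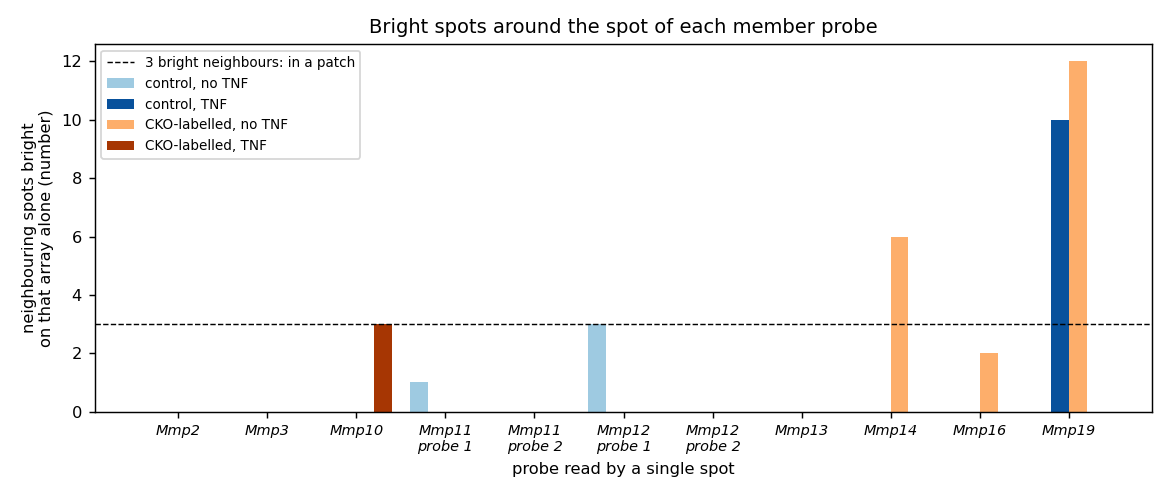
Number of neighbouring spots (vertical axis) that were bright on a single array, for each member probe read by a single spot (horizontal axis) and each array (colours), with a dashed line at the 3 spots that define a patch. Mmp19 has 10 and 12 such neighbours on the arrays where its own signal was high, and Mmp3 and Mmp13 have 0 on every array.

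The TNF changes of the genotypes come from 4 different arrays and share none. Among the 6 members well above background on all 4 arrays, the TNF change on the CKO-labelled arrays minus that in control cells was below -1 in 3 (Mmp3 -2.08, Mmp13 -1.20 and Mmp19 -3.61) and above 1 in 0. Over all 20482 such genes, it was below -1 in 2.26% and above 1 in 1.54%. The values of the others were -0.02 for Mmp2, -0.22 for Mmp14 and -0.27 for Mmp11 by its brighter probe. Without Mmp19, whose bright spots lie in patches, 2 of 5 members passed the limit. Those 5 include Mmp14, whose spot lay in a patch on the CKO-labelled array without TNF, and the shares of all genes include genes with spots in patches.

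**Figure D5:**
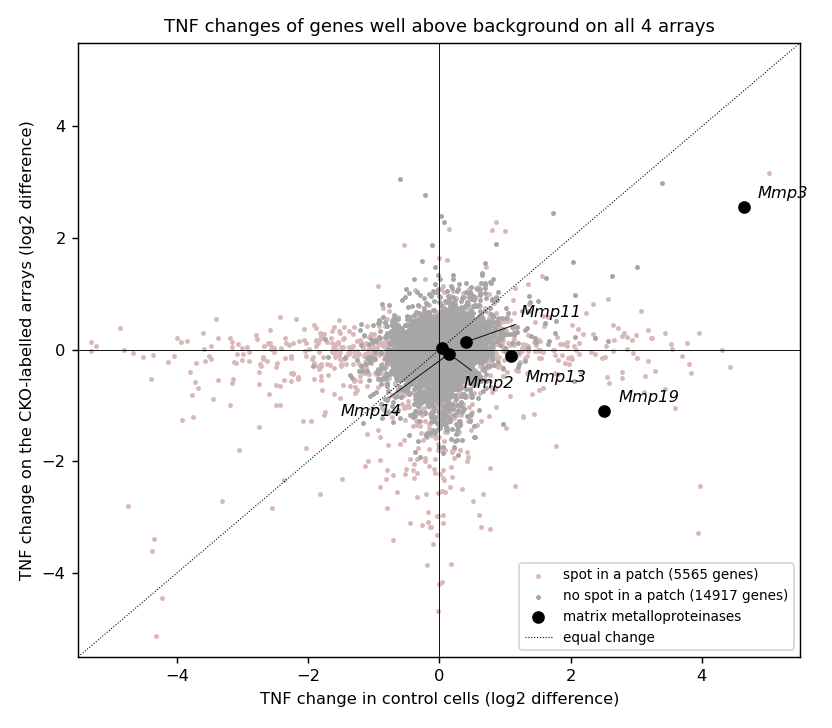
TNF change in log2 units in control cells (horizontal axis) and on the CKO-labelled arrays (vertical axis) for the 20482 genes well above background on all 4 arrays, with the 6 members in black, genes with a spot in a patch in pink and the others in grey; 1 gene lies outside the plotted range. Mmp3 lies at 4.64 and 2.56 near the right edge, Mmp13 at 1.09 and -0.12, and Mmp19 at 2.52 and -1.09 among genes with spots in patches.

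The genes whose pattern over the 4 arrays was nearest to that of Mmp3, by the distance between log2 signals centred on each gene's own mean, were Ccl5 (distance 1.07) and Cxcl1 (1.60), followed by Cxcl5, Chil1 (2.26) and C3 (2.44). The search covered 9663 genes with a symbol, well above background on the 4 arrays and outside patches. The chemokine gene Ccl5 had a signal of 0.127 and 1.34 in control cells without and with TNF, and 0.0417 and 0.330 on the CKO-labelled arrays. Its TNF changes were 3.39 and 2.98, so that unlike Mmp3 it rose almost as much on the CKO-labelled arrays. Cxcl1 changed by 3.00 and 1.48 and Cxcl5 by 2.64 and 1.32, and both rose less on the CKO-labelled arrays, as Mmp3 did. Chil1, a cartilage glycoprotein gene, and the complement gene C3 rose by 2.56 and 2.37 in control cells and had differences of 0.15 and 0.21 on the CKO-labelled arrays. These distances rest on 4 arrays and describe likeness only.

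The other Mmp genes gave few signals. Of 12 on the array, Mmp17 and Mmp23 were well above background on all 4 arrays and 3 to 5 were open to a comparison, with 0 past the limit in any. Of all genes, between 1.02% and 4.47% passed it in each direction, so few could be awaited among so small a number. Mmp23, a membrane-anchored member of unusual structure, had a signal of 5.31 and 5.09 in control cells without and with TNF, and 4.05 and 3.86 on the CKO-labelled arrays, which is lower by -0.39 and -0.40. In the RefSeq order of genes on chromosome 9, Mmp13, Mmp12, Mmp1b, Mmp3, Mmp1a, Mmp10, Mmp8, Mmp27, Mmp20 and Mmp7 follow each other, with a few unrelated gene models between them. The neighbours Mmp1a and Mmp1b of Mmp3 were not well above background on any array.

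Among the inhibitors, the TIMP genes Timp1, Timp2 and Timp3 were well above background on all 4 arrays and did not reach the limit in any comparison. Timp1, whose protein blocks most secreted metalloproteinases, had TNF differences of 0.55 and 0.45, the first with its spot in a patch on the array without TNF. Timp2 had 0.09 and 0.13 and Timp3 0.00 and 0.19, all within 2 technical SD. The differences of the TIMP genes were thus small beside that of Mmp3.

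Of the 10 genes whose products activate metalloproteinase precursors or protect them, 8 or 9 were open to a comparison and at most 1 passed the limit in each direction, where the shares of all genes were between 1.02% and 4.47%. Lcn2, whose product binds MMP9, was higher with TNF by 1.36 in control cells and 1.18 on the CKO-labelled arrays, where its spot lay in a patch on the dimmer array. Plaur, the urokinase receptor, had a signal of 3.65 and 5.10 in control cells and 6.00 and 11.3 on the CKO-labelled arrays, so it was higher by 1.14 on the CKO-labelled array with TNF. Klkb1, plasma kallikrein, was lower with TNF on the CKO-labelled arrays by at least 1.41 (log2 -1.41), from a signal of 0.0711 to a level not well above background. Plau and Plat, the plasminogen activators, and Furin did not reach the limit in any comparison.

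The targets of the enzymes in cartilage were open in 16 of 17 genes. With TNF, 0 of the 16 passed the limit in either genotype, where 2.4% of all genes were higher and 4.27% lower in control cells and 1.02% and 4.47% on the CKO-labelled arrays. Of the 16, 12 lay below 0 in control cells against 7 on the CKO-labelled arrays. Between the genotypes 14 of 16 were below 0 without TNF and 15 of 16 with TNF, with medians of -0.38 and -0.24, where those of all genes were 0.01 and 0.06. Matn1, a cartilage matrix protein, was lower on the CKO-labelled arrays by -1.86 and -1.19, and Col9a2, a chain of type IX collagen, by -1.07 without TNF and -0.67 with TNF, the latter against a control spot in a patch. Col2a1 was level, at -0.03 and -0.01. Several of these genes are also among the chondrocyte markers above.

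Of the 19 transcriptional regulators known to act on Mmp genes, 18 were open to each comparison. The median TNF difference was 0.31 in control cells and 0.25 on the CKO-labelled arrays, with 16 of 18 above 0 in each, where the medians of all genes were 0.01 and 0.06. In control cells 2 passed the limit: Bcl3, a nuclear partner of NF-κB, at 1.31 and the NF-κB subunit gene Relb at 1.02, and 0 were lower, against 2.4% and 4.27% of all genes. On the CKO-labelled arrays the values of these 2 were 0.35 and 0.57. The AP-1 gene Fosl1 went the other way, with TNF differences of 0.45 in control cells and 1.08 on the CKO-labelled arrays, and a genotype difference of 1.18 with TNF. Its signals were 0.598 and 0.817 in control cells, the latter in a patch, and 0.878 and 1.86 on the CKO-labelled arrays. Jun and Fos did not reach the limit in any comparison, and Runx2, which acts on Mmp13 in hypertrophic cells, was not well above background in control cells without TNF.

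Of 8 genes for collagen sensing and for the uptake or surface binding of metalloproteinases, all were open to every comparison and 1 passed the limit, upwards, with TNF on the CKO-labelled arrays, where 1.02% of all genes did, and between the genotypes with TNF, where 1.17% did. Cd44, the hyaluronan receptor that docks MMP9 and MMP14 on the surface, had a signal of 4.58 and 6.33 in control cells without and with TNF and 7.03 and 14.4 on the CKO-labelled arrays. It was higher with TNF by 0.47 and 1.03, and higher on the CKO-labelled array with TNF by 1.18. Cd44, Plaur and Fosl1 had their highest signal on the CKO-labelled TNF array, whereas Mmp3 was highest in control cells with TNF. Ddr2, a collagen receptor gene tied to Mmp13, was 0.29 higher on the CKO-labelled array without TNF, where its spot lay in a patch, and 0.43 higher with TNF, both short of the limit.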

How the data were processed

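RNA of the 4 groups was labelled with Cy3 and hybridised to SurePrint G3 Mouse arrays. Spot intensities deposited by the authors were those of Feature Extraction 10.10.1.1 per the labels, with background subtracted and spatial trends removed, beside a table of scaled intensity values, used only as an alternative. Each array's log2 intensities were set relative to its 75th percentile over transcript spots, without outlier spots. Repeated spots were averaged, and a gene was represented by its brightest probe. Symbols came from the RefSeq table of GRCm38.p6, which matched 20435 of 20809 NM accessions. The array files name another assembly (mm9), so no array coordinates were used.

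Signals not marked as well above background were raised to the lowest marked one of the array where they lay under it, which makes the difference a bound. A spot counted as in a patch if at least 3 of up to 54 others within 5 rows and 2 columns were at least 2-fold brighter on that array than on each other array, with log2 values under -4.5 raised to it. With 1 array per group no p-value was computed. Named were all members, Rela, up to 4 genes per list past the limit, and the 5 genes nearest to the member with the largest TNF rise in control cells. No member well above background on all 4 arrays fell there, so none was matched to a fall. Genes of the lists given with smaller differences, and Xist and Ddx3y, were named beyond that rule. A result on the list of inhibitors is not reported here. The members, lists, patches and alternatives were chosen with earlier results of these data known. The alternatives changed the scaling, background correction (normexp, offset 50, on the median intensity), filter, probe summary, patches and limit. The counting was tested on simulated data. Python 3.11.15 (numpy 2.4.6, pandas 2.3.3) and R 4.3.3 (limma 3.58.1) were used.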

Additional observations from a re-analysis of the deposited data

Results flagged for a closer look

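With TNF, Mmp19 was 2.52 higher on the log2 scale in control cells but differed by -1.09 on the CKO-labelled arrays, so the genotypes moved in opposite directions. The latter was -0.91 with quantile normalization and -0.65 with normexp correction, both short of the limit of 1. Whether the genotypes differ was not tested, since each has 1 array per treatment. Its spot lay in a patch on both arrays where it was bright, with 10 and 12 bright neighbours, and the part of the position in these values was not tested.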

How the results depend on the processing

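No paired analysis was possible because the groups, of 1 array each, share a single replicate number. An additive fit of genotype and TNF over the 4 arrays, with 1 residual degree of freedom, was not run. Over all alternatives there were 233 log2 differences of members, of which 214 stayed within the technical SD of a difference and 19 did not (13 with normexp correction, 3 with no filter and 3 with quantile normalization), all of them of Mmp3, Mmp10 or Mmp19. Of the differences past the limit, 0 changed sign. The difference of the TNF changes of Mmp10, 0.58, fell to -0.19 at the lowest, and TNF differences of Mmp2 on the CKO-labelled arrays lay on both sides of 0 (-0.09 to 0.02). Mmp3 ranged from 4.34 to 4.66 for TNF in control cells, from 2.06 to 2.61 for TNF on the CKO-labelled arrays and from -3.44 to -3.25 between the genotypes with TNF. Mmp13 was 1.04 or higher for TNF in control cells. Members higher with TNF in control cells went from 3 to 2 with patches left out (without Mmp19) and at the 3-fold limit (without Mmp13), and to 4 with no filter (with Mmp10). Members higher with TNF on the CKO-labelled arrays went from 2 to 1 (Mmp3) with normexp, without scaling, with the authors' values, with a 3-fold limit and without patches. Members lower there went from 1 to 0 with quantile normalization, normexp, patches left out and the 3-fold limit. Members higher on the CKO-labelled array without TNF went from 2 to 0 with normexp and with the 3-fold limit, and to 1 (Mmp13) with patches left out, and those lower went from 1 to 0 with normexp and the 3-fold limit. With TNF, those lower went from 2 to 1 (Mmp3) with patches left out and those higher from 0 to 1 (Mmp10) with a 1.5-fold limit. With no filter, 1 member (Mmp12) was lower with TNF in control cells instead of 0. The filter, the limits and the patches set by construction how many can pass. Leaving out the scaling, or taking the authors' values, shifts all log2 differences of a comparison by about the same amount. Without scaling, TNF differences on the CKO-labelled arrays went from 1.02 to 0.92 for Mmp10 and from 2.56 to 2.46 for Mmp3. The normexp setting adds an offset of 50, which by construction makes log2 differences of dim spots smaller. Its part was not tested apart from that of the background model. For quantile normalization the cause was not tested.

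Over all genes, the share of higher among changed genes with TNF on the CKO-labelled arrays was 18.6%. It ranged from 10.8% (normexp), 11.4% (3-fold limit) and 12.3% (no scaling) to 29.5% (quantile normalization), 30.4% (1.5-fold limit) and 36.8% (no filter). Between the genotypes with TNF it was 26.6%, and ranged from 13.98% (3-fold limit) and 19.6% (normexp) to 50.9% (patches left out) and 57.9% (no filter). For TNF in control cells, 562 genes were higher and 1000 lower, and 112 and 136 once patches were left out, 357 and 648 under normexp, 209 and 321 where the dimmer array also had to pass the background limit, and 1349 and 2362 unfiltered. Between the genotypes with TNF, 286 were higher and 790 lower, and 237 and 229 once patches were left out, 98 and 401 under normexp, 167 and 305 under that same demand, and 2120 and 1544 unfiltered. Once patches were left out, the counts between the genotypes without TNF went from 855 and 1068 to 249 and 207, and those for TNF on the CKO-labelled arrays from 255 and 1113 to 210 and 373. Signal over background limits Mmp9, Mmp10, Mmp12 and Mmp16, and a single spot per probe limits most of the others.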

Other observations

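The 5 genes nearest in pattern to Mmp13 over the 4 arrays, looked up after its values were seen, were Nox4 (distance 0.28), Cd5 (0.29), Ip6k3 (0.33), Wdr20rt (0.33) and Alpk1 (0.33). Nox4, an NADPH oxidase gene, had a signal of 0.336 and 0.544 in control cells without and with TNF, and 0.632 and 0.557 on the CKO-labelled arrays. As with Mmp13, the control array without TNF was the lowest. Its TNF changes were 0.70 and -0.18 and its genotype differences 0.91 without TNF and 0.03 with TNF.

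Serpine2, a protease inhibitor gene, had TNF differences of 0.61 in control cells and 0.02 on the CKO-labelled arrays. A2m, which traps proteases of all classes, was lower on the CKO-labelled arrays by -0.66 without TNF and -0.95 with TNF, short of the limit in both.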
